A study of Mus musculus with 56 samples.

Results

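TH1 and TH2 cells polarized from CD4+ T cells of mice with deletion of Dohh were compared with each other, to ask which differences between the 2 lineages were left. The comparison takes the 3 TH1 and the 3 TH2 libraries labelled Dohh KO, 6 of the 56 samples of the series, from a table of 24 libraries. The matched WT comparison of the same table, 3 TH1 against 3 TH2 libraries, is given beside it. All mice were C57BL/6. KO mice carried loxP-flanked Dohh exons and Cre recombinase under the control of the Cd4 promoter, and WT controls lacked the recombinase, so that deletion is limited to cells that have expressed Cd4, which includes the CD8+ lineage at its thymic stage. Per the methods of the study, mice were littermates of both sexes, matched for age and sex and mostly between 6 and 10 weeks old. Whether each library came from a separate animal is not given in the sources used here. The p-values then rest on the spread between libraries, estimated for each gene over all 24 libraries of the table unless stated otherwise. CD4+ T cells of spleen and lymph nodes, enriched by negative selection, were activated with antibodies to CD3 (5 µg/mL) and CD28 (2 µg/mL) in the presence of IL-2 (100 U/mL). TH1 cultures received IL-12 at 10 ng/mL and an antibody to IL-4 at 4 µg/mL, and TH2 cultures received IL-4 at 10 ng/mL and an antibody to IFN-γ at 4 µg/mL. Both polarizing mixes also held IL-2 at 10 ng/mL, and cells were taken on day 4.

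DOHH, deoxyhypusine hydroxylase, carries out the last step in the synthesis of hypusine, an amino acid made from the polyamine spermidine and found in the translation factor eIF5A. TH1 cells are driven by IL-12, STAT4 and the transcription factor T-bet and secrete IFN-γ, whereas TH2 cells are driven by IL-4, STAT6 and GATA3 and secrete IL-4, IL-5 and IL-13. T-bet and GATA3 hold each other in check, so that each lineage normally keeps the program of the other low.

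Total counts of the 12 libraries were between 8372546 and 12554463, and a count of 0 in a library allows up to 3 counts, or 0.247 to 0.473 CPM (counts scaled by effective library size). Dohh (ENSMUSG00000078440.9, chr10:81384428-81388352) measured 103, 148 and 47.5 CPM in the KO-labelled TH1 libraries and 71.6, 88.6 and 92.2 CPM in the KO-labelled TH2 libraries. WT libraries held 34.7 to 38.1 CPM in TH1 cells and 34.8 to 45.8 CPM in TH2 cells, so every KO-labelled library was above every WT library. The counts are per gene and do not separate the floxed exons from the rest, and they therefore do not check the label. Libraries are called KO-labelled throughout for this reason. Replicates were less alike among the KO-labelled libraries. The median SD of a gene on the log2 CPM scale was 0.487 in TH1 and 0.222 in TH2 KO-labelled libraries, against 0.172 and 0.198 in WT. The main fit shares 1 estimate of the spread per gene among all groups, which can understate that of the KO-labelled TH1 libraries. Results from the 6 KO-labelled libraries alone are given below for this reason. Replicate 3 of the KO-labelled TH1 cells differed most from the others for many of the genes below, and results that rest on it are given without it. Cd4, which marks the enriched cells, measured 22.1 to 68.2 CPM in the 6 KO-labelled and 661 to 897 CPM in the 6 WT libraries, without overlap.

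KO-labelled TH1 and TH2 cells still differed at many genes, and the difference was unevenly split. With edgeR's quasi-likelihood test, 959 of 13897 genes (6.9%) differed by more than 2-fold at an adjusted p-value below 0.05, the rule for a call throughout. Of these, 245 (1.76%) were higher in TH1 and 714 (5.14%) higher in TH2 cells. In WT cells, 863 genes (6.21%) were called, 453 (3.26%) higher in TH1 and 410 (2.95%) higher in TH2. The 3 TH1 and 3 TH2 values did not overlap in 859 of the 959 genes called in KO-labelled cells. Over all genes tested, every TH1 library was above every TH2 library for 6.79% and below for 12.4%. The share of calls on the TH1 side, 25.5%, moved with single libraries, to 37.2% without TH1 replicate 1 (324 higher in TH1, 547 higher in TH2) and 36.5% without TH1 replicate 2 (374 and 651). Without TH2 replicate 2, 157 genes were called higher in TH1 and 501 higher in TH2. When only the 6 KO-labelled libraries were fitted, 229 genes were called, 42 higher in TH1 and 187 higher in TH2.

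Of the 453 genes called higher in WT TH1 cells, 99 (21.9%) were also called in KO-labelled cells in the same direction, which is 40.4% of the 245 called there. Another 6 were called in the opposite direction. Of the 410 genes called higher in WT TH2 cells, 211 (51.5%) were also called in KO-labelled cells, 29.6% of the 714, and 3 were called in the opposite direction. A call in WT that was not met in KO-labelled cells need not be a difference between genotypes, so the change in the lineage difference was tested as an interaction of genotype and subset. The interaction called 356 genes (2.56%), 85 (0.612%) positive, with the TH1 minus TH2 difference more toward TH1 in KO-labelled cells, and 271 (1.95%) negative, with the difference more toward TH2. Among the 271, 113 were WT TH1 genes that were not called in KO-labelled cells, and 91 were TH2-high genes called in KO-labelled cells alone. Among the 85, 35 were WT TH2 genes that were not called in KO-labelled cells and 21 were TH1-high genes called there alone. The split into positive and negative calls moved with the KO-labelled TH1 libraries, to 146 and 213 without replicate 1, 136 and 231 without replicate 2 and 445 and 660 without replicate 3. The count of 356 also moved with single libraries, to 1105 without TH1 KO replicate 3, 191 and 216 without TH1 WT replicate 1 or 2, 217 without TH2 KO replicate 2 and 195 and 218 without TH2 WT replicate 2 or 3.

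The lineage genes were also defined in libraries outside the table. In 8 WT libraries of the companion table, 4 TH1 and 4 TH2, the same test called 616 genes higher in TH1 and 612 higher in TH2 cells among 13839 tested, and 581 and 556 of them could be tested here. The TH2-high genes differed nearly as much in KO-labelled as in WT cells. Their median log2 fold change, TH1 over TH2, was -1.44 in KO-labelled and -1.63 in WT cells, against 0.03 and -0.02 over all genes tested. Of the 556, 497 had the TH2 direction in KO-labelled and 552 in WT cells, and 243 and 308 were called, beside 5.14% and 2.95% of all genes. The TH1-high genes differed less, with a median of 0.53 in KO-labelled against 1.56 in WT cells. Of the 581, 405 and 575 had the TH1 direction, and 120 and 335 were called, beside 1.76% and 3.26% of all genes. Opposite calls were 9 and 1 among TH1-high and TH2-high genes in KO-labelled cells and 0 for both in WT cells. Without TH1 KO replicate 3 the median of the TH1-high genes was 0.31 and 94 were called, and the latter count was 82 without TH2 KO replicate 2. With genes at 0 in 1 group set to the bound of 3 counts, the medians in KO-labelled cells were 0.53 and -1.39.

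**Figure D1:**
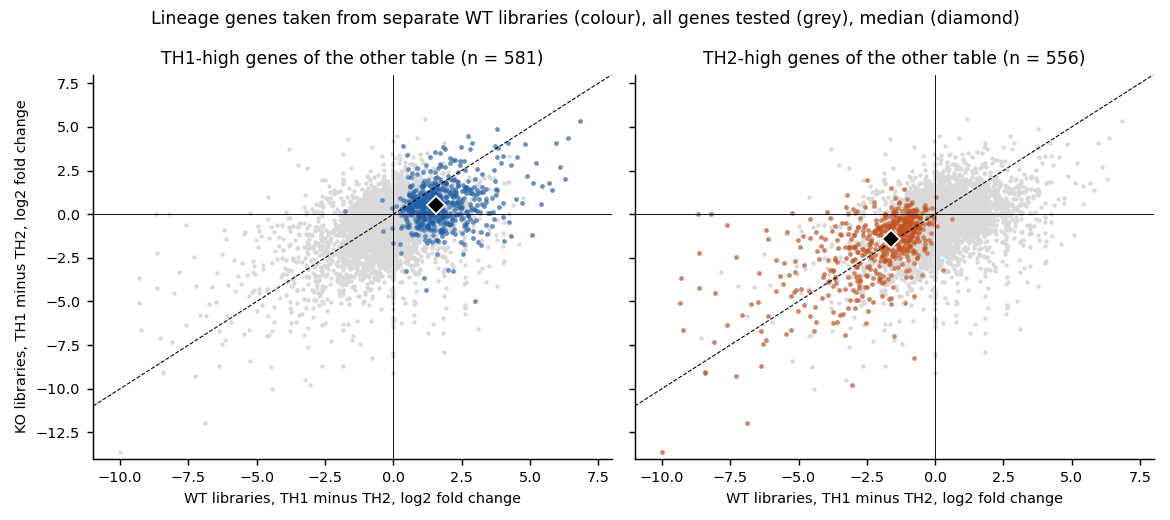
TH1 minus TH2 log2 fold change of each gene in KO-labelled libraries (vertical axis) against WT libraries (horizontal axis), with the genes called higher in TH1 (581, left) or in TH2 (556, right) in separate WT libraries in colour, all genes tested in grey the median of the coloured genes as a diamond and a dashed line at equality. The median of the TH1-high genes lies at 1.56 in WT and 0.53 in KO-labelled cells, and that of the TH2-high genes at -1.63 and -1.44.

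For a view of each library, 100 genes of each side were averaged on the log2 CPM scale, and the score is the TH1 side minus the TH2 side. They were the called genes with the smallest adjusted p-values (edgeR) in the separate WT libraries. KO-labelled TH1 libraries scored 3.40, 3.17 and 3.58, and KO-labelled TH2 libraries 0.01, 0.05 and 0.48. WT TH1 libraries scored 2.82, 2.84 and 2.97, and WT TH2 libraries -2.07, -2.29 and -2.17. KO-labelled TH1 and TH2 libraries did not overlap, and their mean scores differed by 3.21, against 5.05 in WT. The KO-labelled TH2 libraries stood far above the WT TH2 libraries, whereas KO-labelled TH1 libraries were a little above WT TH1. The TH1 side alone, as mean log2 CPM, was 4.44, 4.41 and 4.64 in KO-labelled TH2 cells and 3.40, 3.15 and 3.24 in WT TH2 cells. The TH2 side was 4.44, 4.37 and 4.16 in KO-labelled TH2 cells and 5.48, 5.44 and 5.40 in WT TH2 cells. The sides hold different genes, so only differences between libraries can be read from the score, and its zero has no meaning.

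**Figure D2:**
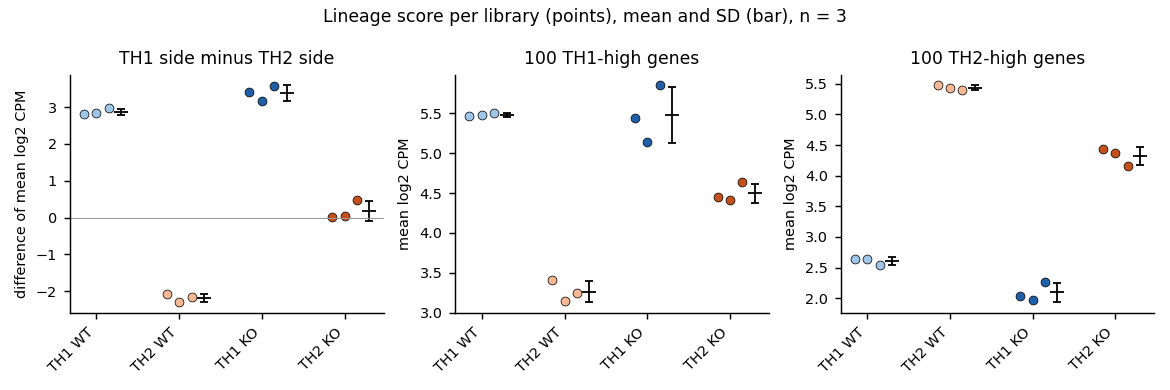
Lineage score (left) and its TH1 and TH2 sides (middle and right, mean log2 CPM of 100 genes each) in each of the 12 libraries, with points for libraries and the mean and SD of 3 libraries per group. KO-labelled TH2 libraries score 0.18 ± 0.26 and WT TH2 libraries -2.18 ± 0.11, while KO-labelled TH1 libraries score 3.38 ± 0.21 and WT TH1 libraries 2.88 ± 0.08.

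The cytokines that define TH2 cells were far higher in TH2 than in TH1 cells in both genotypes. Il4 (ENSMUSG00000000869.12), which encodes the cytokine that induces the lineage, measured 0.818, 0.631 and 0.993 CPM in KO-labelled TH1 and 57.5, 52.9 and 31.6 CPM in KO-labelled TH2 libraries. The groups did not overlap, and the log2 fold change of -5.82 ± 0.46 (SE, adjusted p = 1.84e-08, edgeR) was close to the WT value of -6.10, with a difference of 0.29 ± 0.65 (SE, adjusted p = 0.874 for the interaction in edgeR). Il5 (ENSMUSG00000036117.2), the growth factor of eosinophils, measured 0.818, 0.158 and 0.221 CPM in KO-labelled TH1 libraries, against 329.7, 202 and 291 CPM in TH2. Its TH2 level was over that of WT TH2 cells, at 23.2, 23.8 and 19.1 CPM, in every library, as for 31.9% of all genes. Its log2 fold change was -9.27 ± 0.41 (SE, adjusted p = 2.35e-12, edgeR) in KO-labelled and -7.28 in WT cells. The interaction of Il5, -1.99, was not called (adjusted p = 0.361, edgeR). Il13 (ENSMUSG00000020383.1), a cytokine that acts on epithelium and macrophages, measured 22.5, 14.0 and 11.0 CPM in KO-labelled TH1 and 1975, 1346 and 1518 CPM in KO-labelled TH2 libraries. WT values were 7.45, 5.58 and 4.04 CPM in TH1 and 233, 251 and 183 CPM in TH2 cells. The log2 fold change of Il13 was -6.66 ± 0.37 (SE, adjusted p = 6.58e-11, edgeR) in KO-labelled and -5.27 in WT cells. The interaction of Il13 was not called (-1.39, adjusted p = 0.0942, edgeR) but was with the replicate block (adjusted p = 0.0200) and without TH1 KO replicate 1 (adjusted p = 0.0445).

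**Figure D3:**
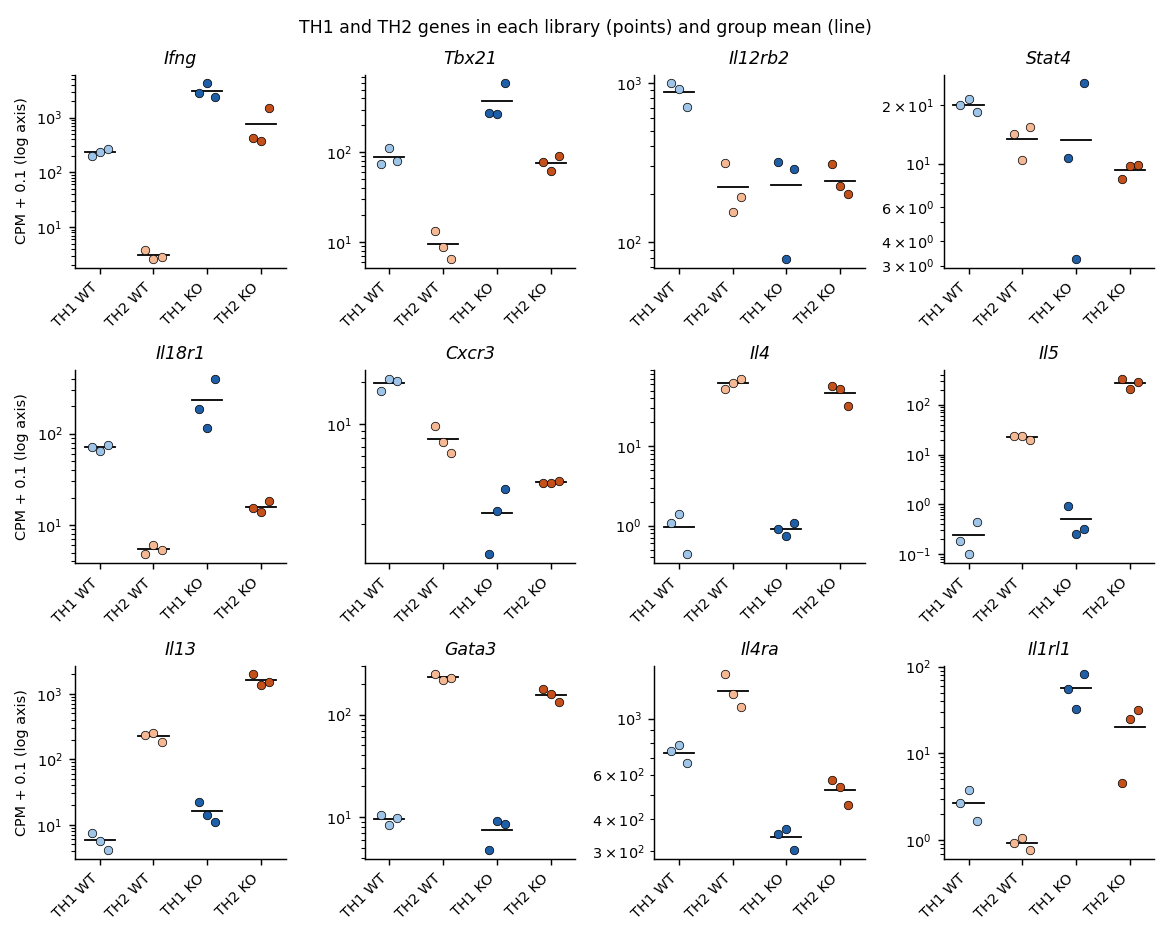
CPM plus 0.1, on a log axis, of 12 lineage genes in each KO-labelled and WT library of TH1 and TH2 cells, with points for libraries and a line at the group mean. Ifng and Tbx21 of KO-labelled TH2 cells lie at 379 to 1499.9 CPM and 61.0 to 89.9 CPM, far above WT TH2 cells, while Il4, Il5, Il13 and Gata3 of KO-labelled TH1 cells stay far below KO-labelled TH2 cells.

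These 3 genes form 1 cluster on chromosome 11 (GRCm38), with Il4 at chr11:53602982-53618669, Il13 at chr11:53631324-53634702 and Il5 at chr11:53720794-53725106. Their neighbours, which are not cytokine genes, differed in the same direction in KO-labelled cells. Of the 7 genes of the locus, 6 were called higher in TH2, as in WT cells, with a median of -2.46 against -1.99, beside 5.14% of all genes in KO-labelled and 2.95% in WT cells. Kif3a, a kinesin subunit beside Il4, measured 7.26, 11.8 and 9.27 CPM in KO-labelled TH1 and 44.4, 37.8 and 29.9 CPM in KO-labelled TH2 libraries (log2 fold change -1.99 ± 0.21, SE, adjusted p = 1.12e-06, edgeR). Sept8, a septin gene next to Kif3a, had a log2 fold change of -2.46 and Rad50, a DNA repair gene whose body holds the TH2 locus control region, of -1.04, which fell under 2-fold without TH1 replicate 3 (-0.76) or TH2 replicate 1 (-0.92). Irf1, at the far end of the locus, had 83.8 to 139 CPM in KO-labelled TH1 and 97.8 to 119.7 CPM in KO-labelled TH2 libraries, with a log2 fold change of 0.04 (adjusted p = 0.924, edgeR).

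The start regions of these 3 genes and of Ifng are shown because their transcripts set the lineages apart most directly. They are RefSeq sequences of GRCm38, 250 bases before to 50 bases after the start, 5′ to 3′ on the strand of the gene. Capitals mark matches, on both strands, to the GATA motif AGATAA or TGATAA, the T-box motif GTGTGA, the STAT motifs TTCNNNGAA and TTCNNNNGAA, and the NFAT motif GGAAAA.
Il4: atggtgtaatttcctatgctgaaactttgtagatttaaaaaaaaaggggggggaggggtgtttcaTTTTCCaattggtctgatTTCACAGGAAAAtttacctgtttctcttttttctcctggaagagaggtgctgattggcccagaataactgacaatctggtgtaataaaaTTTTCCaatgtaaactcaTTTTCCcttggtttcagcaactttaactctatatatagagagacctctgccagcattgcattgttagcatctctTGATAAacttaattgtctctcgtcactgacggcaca
Il13: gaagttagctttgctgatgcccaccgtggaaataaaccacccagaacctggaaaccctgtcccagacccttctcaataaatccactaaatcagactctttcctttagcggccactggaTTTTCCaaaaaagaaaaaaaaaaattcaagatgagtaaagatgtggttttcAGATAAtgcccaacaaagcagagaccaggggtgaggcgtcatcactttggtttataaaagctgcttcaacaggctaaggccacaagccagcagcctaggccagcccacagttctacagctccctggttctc
Il5: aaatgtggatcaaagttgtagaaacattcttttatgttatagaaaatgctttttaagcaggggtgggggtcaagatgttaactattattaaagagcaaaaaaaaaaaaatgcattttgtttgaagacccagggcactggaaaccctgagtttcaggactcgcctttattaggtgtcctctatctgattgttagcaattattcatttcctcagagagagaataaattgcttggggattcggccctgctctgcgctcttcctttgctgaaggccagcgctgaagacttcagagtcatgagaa
Ifng: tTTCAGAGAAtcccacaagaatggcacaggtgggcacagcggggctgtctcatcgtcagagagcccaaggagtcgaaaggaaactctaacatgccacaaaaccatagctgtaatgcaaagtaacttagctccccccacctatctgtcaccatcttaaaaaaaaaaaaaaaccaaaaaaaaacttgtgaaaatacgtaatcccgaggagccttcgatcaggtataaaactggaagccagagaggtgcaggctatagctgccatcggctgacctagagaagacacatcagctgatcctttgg
Il4 (chr11:53618616-53618915, minus strand) held 1 GATA match, 15 bases after the start, 4 NFAT matches and a TTCNNNNGAA match that begins 167 bases before the start and overlaps an NFAT match. Il13 (chr11:53634653-53634952, minus strand) held 1 GATA match 81 bases before the start and 1 NFAT match 132 bases before it. Il5 (chr11:53720544-53720843, plus strand) held no match, and Ifng (chr10:118440796-118441095, plus strand) held 1 TTCNNNGAA match 249 bases before the start and no T-box match. Of 32851 promoters of the same length, 18.6% hold the GATA motif, 14.5% the T-box motif, 8.30% and 6.95% the STAT motifs and 23.4% the NFAT motif, so the matches are common and describe these sequences only.

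Of 11 listed TH2 transcription factors, 5 were called higher in TH2 and 0 higher in TH1 in KO-labelled cells, against 5.14% of all genes for the first. WT cells gave the same counts (2.95% of all genes higher in TH2) and shared 4 of the 5, and the medians were -1.13 and -0.96. Gata3 (ENSMUSG00000015619.10, chr2:9857078-9890034), the master factor, measured 4.70, 9 and 8.38 CPM in KO-labelled TH1 and 176, 159.7 and 133 CPM in KO-labelled TH2 libraries. The groups did not overlap, and the log2 fold change was -4.42 ± 0.25 (SE, adjusted p = 7.41e-11, edgeR), with -4.61 in WT and a difference of 0.19 (adjusted p = 0.818, edgeR). Epas1, a hypoxia-inducible factor, had a log2 fold change of -4.42 and Pparg, a lipid-sensing nuclear receptor, of -3.32. Gfi1, a repressor that sustains TH2 growth, was called at -1.13 but fell under 2-fold without TH1 replicate 2 (-0.78).

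Maf, which encodes the activator c-Maf of Il4 and Il10, differed more in KO-labelled than in WT cells. It measured 6.95, 4.42 and 7.94 CPM in KO-labelled TH1 and 80.4, 56.6 and 39.8 CPM in KO-labelled TH2 libraries. WT TH1 libraries held 56.3, 33.3 and 44.1 CPM, and WT TH2 libraries 105, 59.3 and 95.6 CPM. KO-labelled TH1 cells were thus the low group, below the 9 other libraries. The log2 fold change was -3.17 ± 0.38 (SE, adjusted p = 8.33e-06, edgeR) in KO-labelled and -0.96 (adjusted p = 0.0723) in WT cells, and the interaction of -2.22 ± 0.49 was called (adjusted p = 0.0154, edgeR). The interaction was not called without TH1 WT replicate 1 (adjusted p = 0.0593), TH2 KO replicate 1 (0.0543) or TH2 WT replicate 2 (0.0579). It was also lost without the filter on low counts (0.0606, edgeR) and when the 2-fold change itself was tested (0.256, glmTreat).

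Of 8 receptors and surface proteins of TH2 cells that could be tested, 4 were called higher in TH2 in KO-labelled (5.14% of all genes) and 3 in WT cells (2.95%), with medians of -1.33 and -1.15. When only the 6 KO-labelled libraries were fitted, 2 of 7 were called, with a median of -0.60. Ccr8, a chemokine receptor of TH2 cells, measured 1.74, 1.89 and 0.11 CPM in KO-labelled TH1 and 41.1, 32.5 and 38.7 CPM in KO-labelled TH2 libraries. Its log2 fold change was -4.94 ± 0.38 (SE, adjusted p = 1.53e-08, edgeR) in KO-labelled and -2.83 in WT cells, and the interaction of -2.12 was called (adjusted p = 0.0173, edgeR), though not without TH1 WT replicate 1 or 2 or TH2 WT replicate 2 (adjusted p = 0.0514 to 0.0564). Ecm1, which aids the exit of TH2 cells from lymph nodes, had log2 fold changes of -3.03 and -1.56, and Ccr4, another TH2 chemokine receptor, -2.03 and -1.14. In KO-labelled cells Ccr4 was not called when the 2-fold change itself was tested (adjusted p = 0.109, glmTreat). It was also not called in the 6 KO-labelled libraries alone (0.110, edgeR). Il17rb, a subunit of the receptor for IL-25, had 1 count in the KO-labelled TH1 and 34 counts in the KO-labelled TH2 libraries, a ratio of 29.8 (95% counting interval 4.99 to 1209). The IL-4 receptor gene Il4ra, which receives the signal of the TH2 culture, measured 349, 365 and 303 CPM in KO-labelled TH1 and 571, 539 and 454 CPM in KO-labelled TH2 libraries. The groups did not overlap, and the log2 fold change of -0.62 (adjusted p = 0.00869, edgeR) was under 2-fold. Il1rl1, the receptor for IL-33, held 55.0, 32.5 and 81.4 CPM in KO-labelled TH1 and 4.41, 24.6 and 31.6 CPM in KO-labelled TH2 libraries. Its log2 fold change of 1.48 was not called (adjusted p = 0.0751, edgeR), but was called with DESeq2, with the replicate block, and without TH1 replicate 2 or TH2 replicate 3. WT cells had the same direction, at 1.67 (not called, adjusted p = 0.178, edgeR), and the interaction was -0.18 (adjusted p = 0.954). Il1rl1 was also among the TH1-high genes of the separate WT libraries.

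Among 11 TH2 cytokines and effectors tested, 7 were called higher in TH2 in KO-labelled (5.14% of all genes) and 5 in WT cells (2.95%), with medians of -2.98 and -1.25. Besides Il4, Il5 and Il13, the 7 were Il6, Il10, Il24 and Penk. When only the 6 KO-labelled libraries were fitted, 4 were called. Those of Il6, Il10 and Il24 were lost there (adjusted p = 0.0578, 0.189 and 0.220, edgeR). Il10, an inhibitory cytokine that TH1 cells can also make, stood at the edge of the fold threshold, with 206, 153 and 93.9 CPM in TH1 and 336, 268 and 313 CPM in TH2 (log2 fold change -1.01, adjusted p = 0.0235, edgeR), and was not called without TH1 replicate 2 or 3 or TH2 replicate 1 or 3. Il24, an IL-10 family cytokine, measured 158, 170.1 and 2.65 CPM in TH1 and 1156, 995 and 1187 CPM in TH2. Its TH1 replicate 3 stood far below the other TH1 libraries. Il9, a mast cell growth factor, was not called in KO-labelled cells (1.15 to 3.18 CPM in TH2, at most 0.631 CPM in TH1, adjusted p = 0.0682, edgeR), but was with DESeq2 (-3.28, adjusted p = 0.0154) and with edgeR without TH1 replicate 2 (0.0463), while WT TH1 libraries had 0 counts and WT TH2 cells were at least 29.1-fold higher.

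Genes of the TH1 program differed in their levels in KO-labelled TH2 cells. All 3 KO-labelled TH2 libraries were above all 3 WT TH1 libraries for 2 of 9 TH1 transcription factors, 5 of 13 receptors and surface proteins and 7 of 11 cytokines and effectors, against 32.9% of all genes tested, and the first 2 counts are near that share. Ifng, the defining cytokine gene (ENSMUSG00000055170.3, chr10:118441046-118445892) measured 2775, 4242 and 2346 CPM in KO-labelled TH1 and 419, 379 and 1499.9 CPM in KO-labelled TH2 libraries. WT TH1 libraries held 195, 239.8 and 271 CPM, and WT TH2 libraries 3.70, 2.54 and 2.69 CPM. All 3 KO-labelled TH2 libraries therefore had more Ifng than any WT TH1 library, and KO-labelled TH1 libraries more still. The log2 fold change of TH1 over TH2 was 2.03 ± 0.43 (SE, adjusted p = 0.00377, edgeR) in KO-labelled and 6.28 ± 0.55 (adjusted p = 1.27e-07) in WT cells. KO-labelled TH2 replicate 3 stood far above the other TH2 libraries, so the KO-labelled value depends on it, though the call was not lost with any library left out. The interaction was -4.26 ± 0.65 (SE, adjusted p = 0.00096, edgeR). The call in KO-labelled cells was lost when the 2-fold change itself was tested (adjusted p = 0.0973, glmTreat) and when only the 6 KO-labelled libraries were fitted (0.144).

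Tbx21 (ENSMUSG00000001444.2, chr11:97098071-97115331), which encodes T-bet, measured 272, 267 and 589.8 CPM in KO-labelled TH1 and 78.1, 61.0 and 89.9 CPM in KO-labelled TH2 libraries. KO-labelled TH2 cells overlapped WT TH1 cells (74.4, 111 and 80.9 CPM) and lay above WT TH2 cells (13.0, 8.56 and 6.39 CPM). Its log2 fold change was 2.30 ± 0.32 (SE, adjusted p = 5.83e-05, edgeR) in KO-labelled and 3.24 ± 0.35 (adjusted p = 1.52e-06) in WT cells. The interaction of -0.94 ± 0.45 was not called (adjusted p = 0.286, edgeR), but reached -1.39 without TH1 KO replicate 3 (adjusted p = 0.0347). Of the 9 TH1 factors tested, Tbx21 alone was called higher in TH1 in KO-labelled cells (1.76% of all genes), and 2 were in WT cells (3.26%). The median of the 9 was 0.40 in KO-labelled and 0.58 in WT cells. In KO-labelled cells it was -0.11 without TH1 replicate 3 and 0.61 without TH1 replicate 2. Hlx, a homeobox partner of T-bet, was the other WT gene, with 3.28 in WT and 1.27 in KO-labelled cells (adjusted p = 0.109, edgeR), where it was called without TH1 replicate 3 (1.55, adjusted p = 0.0399). Eomes, a T-box factor related to T-bet, was called on the TH2 side in KO-labelled cells with the replicate block (-1.26, adjusted p = 0.0296, edgeR) and without TH2 replicate 2 (-1.78, 0.0388). Stat4, which transmits the IL-12 signal, measured 10.5, 3.16 and 25.7 CPM in KO-labelled TH1 and 8.29, 9.58 and 9.75 CPM in KO-labelled TH2 libraries, and the groups overlapped.

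The receptors of the TH1 lineage fell into different classes. The IL-18 receptor had a lineage difference close to that of WT. Il18r1, its ligand-binding chain, measured 185, 115 and 398 CPM in KO-labelled TH1 and 15.1, 13.9 and 18.4 CPM in KO-labelled TH2 libraries, with WT values of 71.0, 65.0 and 75.6 CPM and 4.69, 6.03 and 5.27 CPM. The log2 fold change was 3.88 ± 0.35 (SE, adjusted p = 1.37e-07, edgeR) in KO-labelled and 3.73 in WT cells, a difference of 0.15 ± 0.47 (adjusted p = 0.919). Il18rap, its signalling partner, was also called higher in TH1, at 3.79. Without TH1 replicate 3 both were still called, at 3.27 and 2.74. The IL-12 receptor was not called between KO-labelled subsets. Il12rb2, the subunit that IL-12 signalling depends on, measured 318, 78.7 and 289 CPM in KO-labelled TH1 and 308, 224 and 199.5 CPM in KO-labelled TH2 libraries. The groups overlapped (log2 fold change -0.09 ± 0.50, adjusted p = 0.94, edgeR), while WT TH1 libraries, at 995, 922 and 705 CPM, were above WT TH2 libraries, at 315, 156 and 192 CPM. The interaction of -2.07 was not called with edgeR (adjusted p = 0.131) but was with DESeq2 (0.0463).

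Cxcr3, the chemokine receptor that guides TH1 cells to inflamed tissue, measured 1.12, 2.37 and 3.42 CPM in KO-labelled TH1 and 3.78, 3.77 and 3.92 CPM in KO-labelled TH2 libraries. All 6 were below the lowest WT library, and the TH1 libraries were the lower group. The log2 fold change was -0.74 (adjusted p = 0.16, edgeR) in KO-labelled and 1.31 (adjusted p = 0.00307) in WT cells, and the interaction of -2.05 ± 0.43 was called (adjusted p = 0.00957, edgeR). That interaction was not called when the 2-fold change itself was tested (adjusted p = 0.256, glmTreat). Without TH1 KO replicate 3, Cxcr3 was called on the TH2 side in KO-labelled cells (-1.16, adjusted p = 0.0282). Ifngr1, the binding chain of the IFN-γ receptor, had a log2 fold change of -0.07 in KO-labelled and 1.09 in WT cells. Its interaction was not called, but was without TH1 KO replicate 3 (-1.63, adjusted p = 0.00451, edgeR). Ifngr2, the signalling chain of the same receptor, which TH1 cells are known to lower, was called on the TH2 side in both genotypes, at -3.17 and -2.20. In all, 4 of 13 TH1 receptors and surface proteins were called higher in TH1 and 1 lower in KO-labelled cells, against 8 and 1 in WT cells. Over all genes the shares were 1.76% and 5.14% in KO-labelled and 3.26% and 2.95% in WT cells. The median of the 13 was 0.33 in KO-labelled and 1.41 in WT cells. In KO-labelled cells it was -0.21 without TH1 replicate 3 and 0.58 to 0.65 without TH1 replicate 1 or 2 or TH2 replicate 3.

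Of 11 cytokines and effectors of TH1 cells, 9 were called higher in TH1 and 1, Il2, lower in KO-labelled cells, and 8 higher and 0 lower in WT. Of all genes, 1.76% were called higher and 5.14% lower in TH1 in KO-labelled cells, and 3.26% and 2.95% in WT cells. The count of 9 was 6 without TH2 replicate 2, and 3 when the 2-fold change itself was tested or only the 6 KO-labelled libraries were fitted. In 7 of the 11, Ifng, Il2, Ccl3, Ccl4, Ccl5, Nkg7 and Gzmb, all 3 KO-labelled TH2 libraries were above all 3 WT TH1 libraries, as were 32.9% of all genes. Ccl3, a chemokine that draws monocytes and T cells, measured 792, 909.8 and 465 CPM in KO-labelled TH1 and 189, 179.5 and 467 CPM in KO-labelled TH2 libraries. The 2 groups overlapped at TH2 replicate 3. Its log2 fold change of 1.37 (adjusted p = 0.0106, edgeR) was not called without TH2 replicate 1 (adjusted p = 0.0546) or 2 (0.0766). WT libraries held 9.85 to 12.5 CPM of Ccl3 in TH1 and 0.659 to 1.06 CPM in TH2, a log2 fold change of 3.78, and the interaction of -2.40 was called (adjusted p = 0.0331, edgeR). Leaving out 1 of the 12 libraries at a time, that call held without TH1 KO replicate 2 or 3 or TH2 KO replicate 1 or 2 and was lost without any of the others. It was also lost with the replicate block (adjusted p = 0.0584, edgeR).

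Ccl5, a related chemokine, went the other way. It measured 126, 316 and 160.5 CPM in KO-labelled TH1 and 73.3, 63.8 and 80.0 CPM in KO-labelled TH2 libraries, while WT TH1 (16.8 to 24.1 CPM) and WT TH2 libraries (18.9 to 30.2 CPM) overlapped. The interaction was 1.68 ± 0.45 (SE, adjusted p = 0.0427, edgeR), a call that held without TH1 KO replicate 1 or 3 and was lost without any other library. It was also lost with the replicate block (adjusted p = 0.0545, edgeR). Xcl1, a chemokine of NK and CD8+ T cells that attracts cross-presenting dendritic cells, measured 98.6, 207 and 295 CPM in KO-labelled TH1 and 0.21, 2.34 and 11.1 CPM in KO-labelled TH2 libraries, and at most 0.299 CPM in WT libraries. It had the largest log2 fold change on the TH1 side among genes with at least 5 CPM, 5.46 ± 0.66 (SE, adjusted p = 1.64e-05, edgeR). Tnf and Lta, neighbouring genes of the TNF family, were called at 2.75 and 2.71. Fasl, which encodes a death ligand, was called at 1.29, but was not without TH1 replicate 3 (0.57) or TH2 replicate 1 (adjusted p = 0.0581) or 2 (0.0960). Gzmb, a cytotoxic protease, measured 17916, 9325 and 12199 CPM in KO-labelled TH1 and 13440.3, 9255 and 11086 CPM in KO-labelled TH2 libraries. The 2 groups overlapped (log2 fold change 0.22, adjusted p = 0.77, edgeR), and every KO-labelled library lay above the WT TH1 range of 1026 to 1227 CPM.

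Fewer genes of the response to IFN-γ were called between the subsets in KO-labelled than in WT cells. Of 19 listed response genes tested, 3 (Gbp3, Gbp5 and Gbp7, guanylate-binding proteins of cell defence) were called higher in TH1 in KO-labelled cells, each at 1.12, and 7 in WT cells, beside 1.76% and 3.26% of all genes. The 3 calls were lost without TH1 replicate 1 or TH2 replicate 1, those of Gbp5 and Gbp7 without TH2 replicate 2 and that of Gbp7 without TH1 replicate 3. When the 2-fold change itself was tested, or only the 6 KO-labelled libraries were fitted, 0 were called. The medians were 0.13 in KO-labelled and 0.68 in WT cells, and that in KO-labelled cells was 0.15 to 0.22 without any 1 of the other 5 libraries and 0.48 without TH1 replicate 1. The interaction called 5 of the 19 genes, all negative (1.95% of all genes). Iigp1, a GTPase that acts on intracellular pathogens, measured 9.10, 12.3 and 11.0 CPM in KO-labelled TH1 and 4.41, 31 and 37.8 CPM in KO-labelled TH2 libraries, which overlapped. WT TH1 libraries held 4.22 to 8.07 CPM and WT TH2 libraries at most 0.247 CPM, and the interaction was -6.26 ± 0.93 (SE, adjusted p = 0.000749, edgeR). Nlrc5, the activator of MHC class I genes, measured 209, 115 and 270.1 CPM in KO-labelled TH1 and 160.0, 132 and 111 CPM in KO-labelled TH2 libraries. In WT it separated the subsets widely, at 297, 328 and 315 CPM in TH1 and 53.2, 39.3 and 42.0 CPM in TH2, and the interaction was -2.24 (adjusted p = 0.000251, edgeR). Irgm1, Tgtp2 and Gbp7 had interactions of -1.55, -3.27 and -1.92. That of Tgtp2 was not called without TH2 WT replicate 2, and that of Gbp7 was called without TH1 KO replicate 3 or TH2 KO replicate 1 and lost without any other library.

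Genes of signalling, of the other lineages and of metabolism divided as follows. Of 15 STAT, JAK and SOCS genes, 2 were called, both higher in TH2 (5.14% of all genes), Jak2 (-1.56) and Socs2 (-1.28), and Jak2 was also called in WT cells (-2.34). Socs2 fell under 2-fold without TH1 replicate 3 (-0.85). When the 2-fold change itself was tested, 0 of the 15 were called, and 1 was in the 6 KO-labelled libraries alone. Of 14 TH17 genes, 6 were called higher in TH2 and 1 in TH1 in KO-labelled cells, against 3 and 2 in WT, beside 5.14% and 1.76% of all genes in KO-labelled and 2.95% and 3.26% in WT cells, and the 6 became 3 without TH1 replicate 1 or 2. These 6 also became 2 when the 2-fold change itself was tested and 3 when only the 6 KO-labelled libraries were fitted. The TH17 median of -0.72 became -1.17 with genes at 0 set to the bound of 3 counts and was -0.23 without TH2 replicate 1. Il17a, the signature cytokine of TH17 cells, measured 14.9, 8.68 and 13.9 CPM in KO-labelled TH1 and 97.8, 31.7 and 115 CPM in KO-labelled TH2 libraries (log2 fold change -2.69 ± 0.52, SE, adjusted p = 0.00173, edgeR). Il23r, the IL-23 receptor, had 3.95 to 9.38 CPM in KO-labelled TH1 and 4.38 to 11.1 CPM in KO-labelled TH2 libraries, and its WT difference of 3.68 toward TH1 had an interaction of -3.94 (adjusted p = 0.00084, edgeR). Batf, an AP-1 factor needed by TH17 and TH2 cells, had a TH2-high difference of -1.17 in KO-labelled and -2.65 in WT cells (interaction 1.48, adjusted p = 0.00238, edgeR), and -0.98 in KO-labelled cells without TH1 replicate 3.

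Of 17 genes of regulatory T cells, 8 were called higher in TH2 and 1 in TH1 in KO-labelled cells, against 5 and 1 in WT, and 4 had a negative interaction. Over all genes the shares were 5.14% and 1.76% in KO-labelled cells, 2.95% and 3.26% in WT and 1.95% for a negative interaction. The 8 became 1 when only the 6 KO-labelled libraries were fitted and 2 when the 2-fold change itself was tested. The 1 higher in TH1 became 0 in both. Lrrc32, which encodes GARP, the anchor of latent TGF-β, measured 4.19, 2.68 and 2.32 CPM in KO-labelled TH1 and 42.1, 31.1 and 14.8 CPM in KO-labelled TH2 libraries. WT libraries, at 110.2 to 123 CPM in TH1 and 66.6 to 118 CPM in TH2, overlapped, and the interaction was -3.70 ± 0.41 (SE, adjusted p = 4.27e-05, edgeR). Ctla4, an inhibitory receptor, showed the same order, with 189, 132 and 153 CPM in TH1 and 717, 409 and 347 CPM in TH2 (log2 fold change -1.63, interaction -1.96, adjusted p = 0.0339, edgeR). That interaction was lost without any 1 of 8 libraries (adjusted p up to 0.117) and held without TH1 KO replicate 1 or 3 or TH2 KO replicate 2 or 3. Foxp3, the factor that defines regulatory T cells, stood at 0.11 to 3.00 CPM in the 6 libraries and was not called. In the lists of glycolysis (18 genes), sterol synthesis (19), cell cycle (20) and polyamine and hypusine metabolism (12), edgeR and DESeq2 each called 0 genes in KO-labelled cells, and 3, 4, 7 and 1 genes had an unadjusted p-value below 0.05 in edgeR. Among all 13897 genes tested, 3328 had such a p-value.

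The genes with the largest change in lineage difference, beyond the lists, were taken by size with at least 5 CPM in 1 group. On the positive side, Mpzl2, an adhesion protein, turned over. It measured 12.2, 10.6 and 10.8 CPM in KO-labelled TH1 and 1.26, 1.73 and 2.44 CPM in KO-labelled TH2 libraries, while WT TH1 libraries (4.39, 3.09 and 2.47 CPM) were below WT TH2 libraries (10.7, 6.45 and 12.1 CPM). Its log2 fold changes were 2.62 and -1.54, both called (adjusted p = 1.44e-05 and 0.00168, edgeR). Esm1, a secreted proteoglycan, turned over in the same way, at 77.2, 81.6 and 62.7 CPM against 24.4, 22.9 and 38.3 CPM in KO-labelled cells, and 1.82, 1.59 and 2.92 CPM against 10.9, 7.51 and 9.75 CPM in WT. Its call in KO-labelled cells (1.37) was lost without TH2 replicate 1 (adjusted p = 0.0635, edgeR) or 2 (0.0969). On the negative side, Cd86, a ligand of CD28 and CTLA-4, measured 0.409, 1.26 and 1.76 CPM in KO-labelled TH1 and 4.93, 20.2 and 18.8 CPM in KO-labelled TH2 libraries, with 5.05 to 8.64 CPM and 2.75 to 3.70 CPM in WT.

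Among the 10 genes with the largest difference toward TH1 in KO-labelled cells were Xcl1, Il18r1 and Il18rap. Klri2, a lectin-like receptor of NK cells, measured 17.2, 15.8 and 66.5 CPM in TH1 and 1.26, 0.713 and 2.44 CPM in TH2 (log2 fold change 4.49 ± 0.55, SE, adjusted p = 1.19e-05, edgeR), and 3.51 without TH1 replicate 3. Klrd1, Klrk1 and Klre1, NK receptor genes outside the 10 that were chosen after their values were seen, were called at 2.61, 2.84 and 3.20 in KO-labelled and at 3.06, 2.45 and 2.08 in WT cells. Of the 7 listed CD8+ T and NK cell markers tested, 3 were called higher in TH1 in KO-labelled cells (1.76% of all genes), and Eomes, of that list, was not. Mecom and P2rx3 were also among the 10, at 4.05 and 3.75. Styk1 measured 8.18, 8.68 and 74.2 CPM in TH1 and 0.917 to 3.67 CPM in TH2, and its log2 fold change of 3.86 was 2.03 without TH1 replicate 3. Ms4a4c measured 6.44, 7.10 and 35.8 CPM in TH1 and 0.306 to 1.48 CPM in TH2, and its log2 fold change of 4.06 was 2.80 without that library. Both were called without it but not when only the 6 KO-labelled libraries were fitted (adjusted p = 0.106 and 0.0578, edgeR). Kit, the stem cell factor receptor, rested on TH1 replicate 3, with 3.99, 4.89 and 80.5 CPM in TH1 and 1.15 to 3.87 CPM in TH2, and was not called without it (0.76, adjusted p = 0.157, edgeR). Cd7, a T and NK cell surface protein, also had its highest value there (2.86, 3.63 and 23.8 CPM). Its log2 fold change was 3.43, and 1.78 without that library, and it was not called in the 6 KO-labelled libraries alone (adjusted p = 0.121, edgeR).

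The 10 genes with the largest difference toward TH2 were mostly near 0 in TH1. Pth, the gene of parathyroid hormone, had 0 counts in all 3 KO-labelled TH1 libraries and 283, 103 and 86.1 CPM in KO-labelled TH2 libraries, at least 1318-fold higher against 3 counts over the TH1 group. WT TH2 libraries held 44.6 to 48.2 CPM of Pth, and 1 read was counted in WT TH1. Tcaf2, a channel-associated factor, was at least 55.4-fold higher in KO-labelled and at least 45.1-fold higher in WT TH2 cells. The immunoglobulin gene Ighg1 was at least 423-fold higher (29.4 to 73.8 CPM in KO-labelled TH2), and Apol7c, an apolipoprotein L gene, at least 58.9-fold higher. Apol7c was not called without any 1 of 5 of the 6 libraries, the exception being TH2 replicate 1.

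Others of the 10 were uneven among the KO-labelled TH2 libraries. Mgl2, a lectin of macrophages and dendritic cells, measured 17.3, 391 and 66.5 CPM, and Ccl17, a chemokine of dendritic cells, 20, 211 and 121 CPM. Car4, a carbonic anhydrase, measured 4.51, 95.4 and 12.1 CPM. These 3 genes were highest in TH2 replicate 2. Myeloid markers were highest in the same library. The summed CPM of 13 myeloid markers was 30.4, 913 and 108 in KO-labelled TH2, 7.36, 281 and 26.1 in KO-labelled TH1 and 22.1 to 31.7 in WT libraries, with Itgam and Cd163 listed at 0 in all KO-labelled libraries and 1 of 11 tested called (higher in TH2, as 5.14% of all genes). With the replicate block 3 were called, without TH1 replicate 2 it was 2, and without TH1 replicate 1 or 3 or TH2 replicate 2 or 3 it was 0. The part of such cells in these 3 differences was not tested, and in bulk RNA fewer cells of a type and less RNA per cell cannot be told apart.

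Other marker lists also moved with the subsets. B cell markers were called higher in TH2 for 5 of 7 genes in KO-labelled (5.14% of all genes) and 4 of 7 in WT cells (2.95%), with a sum over 8 genes of 7.87 to 15.3 CPM in KO-labelled TH1 and 48.3 to 64.6 CPM in KO-labelled TH2 libraries, none of them at 0 in a whole group. The 5 became 3 without TH1 replicate 1 or TH2 replicate 1 and 2 when only the 6 KO-labelled libraries were fitted. CD8+ T and NK cell markers were called higher in TH1 for 3 of 7 in KO-labelled (1.76% of all genes) and 3 of 7 in WT cells (3.26%), with sums over 8 genes of 426 to 936 CPM in KO-labelled TH1 and 85.0 to 176 CPM in KO-labelled TH2 libraries. Cd8a itself was 4.29 to 13.6 CPM in KO-labelled TH1 and 5.98 to 18.4 CPM in KO-labelled TH2 libraries. The median log2 fold change of the 7 was 2.15 in KO-labelled and 0.58 in WT cells. Without TH1 KO replicate 3 it was -0.89 in KO-labelled cells. In that setting 3 of the 7 were called higher and 1 lower in TH1, beside 334 and 939 of 14260 genes. Basophil and mast cell markers (15 genes, Tpsab1 at 0) summed to 74.7, 372 and 450.2 CPM in KO-labelled TH1 and 86.0, 511 and 576 CPM in KO-labelled TH2 libraries, against 6.09 to 8.52 CPM in WT libraries, and 1 of 15 was called higher and 2 lower in TH1, beside 1.76% and 5.14% of all genes. The ranges overlapped, but in each of the 3 same-numbered pairs the TH2 library had the higher basophil and mast cell sum and the higher myeloid sum. The 6 γδ T cell markers summed to 709 to 1043 CPM over the 6 KO-labelled and 37.2 to 59.1 CPM over the 6 WT libraries, and 0 were called between KO-labelled TH1 and TH2 by edgeR or DESeq2, with 0 at an unadjusted p-value below 0.05. The 13 genes of T cell identity, none at 0, summed to 4832 to 7590 CPM in KO-labelled TH1, 3544 to 4696 CPM in KO-labelled TH2 and 5038 to 6468 CPM in WT libraries, and 0 were called in KO-labelled cells by edgeR or DESeq2, with 6 at an unadjusted p-value below 0.05. Among all 13897 genes tested, 3328 had an unadjusted p-value below 0.05 between KO-labelled TH1 and TH2. Without TH1 replicate 1 or TH2 replicate 1, 2 of the 13 T cell identity genes were called higher in TH1. By the adjusted p-value alone 4 were, beside 450 of the 13897 genes. Gene by gene, all 3 KO-labelled TH2 libraries lay below all 3 WT TH2 libraries for 8 of the 13 and above them for 2, beside 30.5% and 31.9% of all genes. KO-labelled TH1 lay below WT TH1 for 5 and above for 1, beside 27% and 23.7%. Cd5, an inhibitory receptor of T cells, measured 39.9 to 84.0 CPM in the 6 KO-labelled and 434 to 625 CPM in the 6 WT libraries. The part of these cell types in the lineage differences was not tested.

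**Figure D4:**
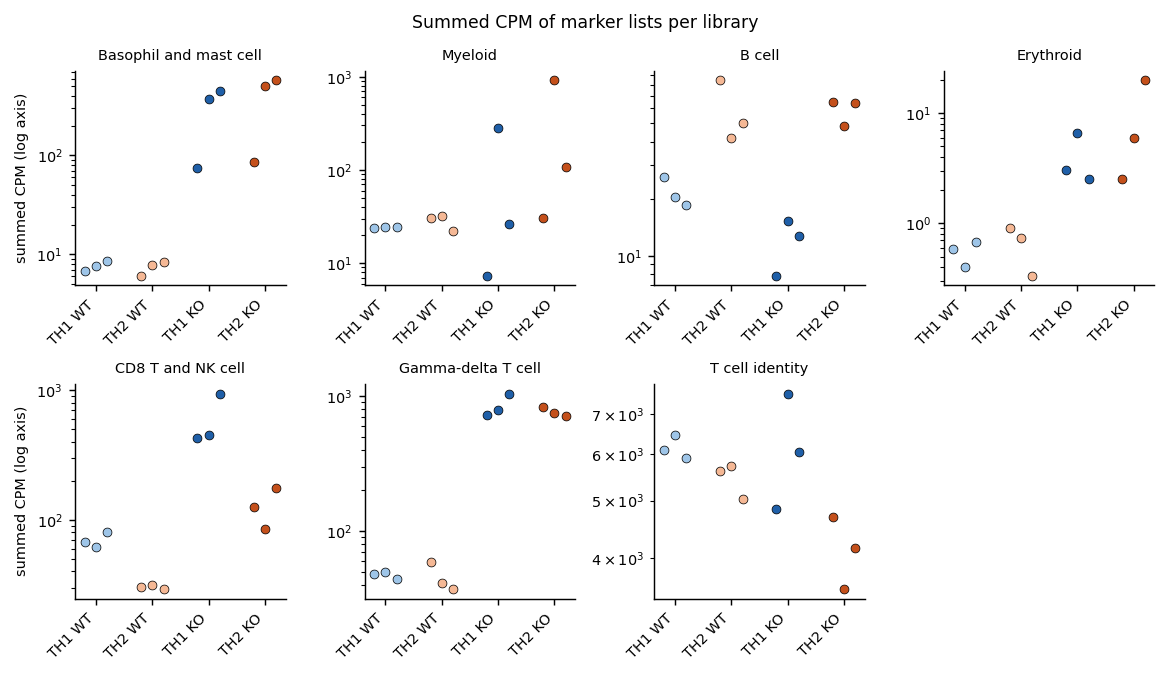
Summed CPM, on a log axis, of the marker lists of other cell types and of T cell identity in each of the 12 libraries. Basophil and mast cell and γδ T cell sums are high in both KO-labelled subsets, B cell sums are higher in TH2 of both genotypes, and CD8+ T and NK cell sums are higher in TH1, at 426 to 936 CPM against 85.0 to 176 CPM in KO-labelled cells.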

How the data were processed

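RNA sequencing of T cells polarized in vitro was used, 24 libraries of the Dohh table and the 8 WT TH1 and TH2 libraries of the Odc table. Per the labels, libraries were made with a TruSeq stranded mRNA kit, and the submitters' processing notes name deepTools, STAR, featureCounts, DESeq2 and mm10. The annotation release and the strand setting of the counting are not given in the sources used here, so reads of overlapping antisense genes may not be told apart. The deposited values are raw read counts per gene, not normalized. Symbols and positions came from a GENCODE annotation of GRCm38 and were found for 47224 of 47937 identifiers, and the others held 0.0585% of the counts.

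Counts were tested with edgeR 4.0.16 (R 4.3.3), by quasi-likelihood with filterByExpr over 8 groups, TMM and robust dispersion, all 24 libraries in 1 fit. TH1 was compared with TH2 in KO-labelled and in WT libraries, and the interaction gave the difference. A call needed a change of more than 2-fold and an adjusted p-value (Benjamini-Hochberg, over all genes tested) below 0.05. Standard errors were taken from the log2 fold change and its F statistic. The companion table was fitted separately and used for its WT gene sets alone. Scores used log2 CPM with a prior count of 2 and 100 genes per side. Counting intervals (95%) and the floor of 3 counts cover counting error only, since reads carry no molecular identifiers. No 2 libraries had equal counts in more than 1.45% of genes.

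Genes named were those of the 6 lists of TH1 and TH2 genes, the 10 called genes with the largest difference in each direction and the 8 with the largest interaction in each direction, the latter 2 sets with a mean of at least 5 CPM in 1 group. A few of these genes are not reported here. Genes of other lists are examples taken after their values were seen. The comparison, the 28 gene lists (329 genes) and the tests were chosen with earlier results of these data known. Promoters from RefSeq were found for 55 of 69 listed lineage genes. Same-numbered WT TH1 and TH2 libraries deviated together (r = 0.313, 0.161 and 0.212 across genes), which the labels do not explain, and same-numbered KO-labelled libraries did not in every pair.

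In simulated data with 200 changed genes, 190 were recovered between KO-labelled TH1 and TH2, with 4 false calls among 13477 genes, and 166 for the interaction, with 10 false calls. The changed genes all had a mean count above 50 and a true change of more than 2-fold, and each gene had the same spread in every group. The larger spread of the KO-labelled TH1 libraries (median SD 0.487) was not simulated, so these rates do not describe the real comparison. Alternatives were DESeq2 1.42.0, RLE size factors, other filters on low counts, glmTreat, the adjusted p-value alone, the 6 KO-labelled libraries alone, a replicate block, other lineage sets and scores, and each library left out in turn. Tables and figures were made with Python 3.11.15, pandas 2.3.3 and matplotlib 3.10.9.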

Additional observations from a re-analysis of the deposited data

Results flagged for a closer look

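The following genes differed between genotypes in their TH1 minus TH2 log2 fold change, by edgeR's test of the interaction over all genes. Values are KO-labelled minus WT. Among lineage genes, the difference moved toward TH2 for Ifng (-4.26, adjusted p = 0.00096), Ccl3 (-2.40, 0.0331), Maf (-2.22, 0.0154), Ccr8 (-2.12, 0.0173), Cxcr3 (-2.05, 0.00957), Ly6c1 (-1.50, 0.0185) and Ecm1 (-1.46, 0.0416), and toward TH1 for Ccl5 (1.68, 0.0427). Of these, Ifng and Cxcr3 were called without any 1 of the 12 libraries. When the 2-fold change itself was tested, Ifng alone was still called, and Cxcr3 was not (adjusted p = 0.256, glmTreat). With the replicate block the calls of Ccl3 (0.0584, edgeR) and Ccl5 (0.0545) were lost.

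Among the largest of all genes on the TH2 side were Iigp1 (-6.26, adjusted p = 0.000749), Myof (-5.43, 0.0365), Pla2g4e (-5.16, 0.00262), Adgrg3 (-5.00, 0.00464), Gm4070 (-4.86, 0.0447), Cd86 (-4.81, 0.00209) and Gm29050 (-4.70, 0.0234). Pla2g4e, a phospholipase gene, measured 21.5, 6.32 and 6.47 CPM in KO-labelled TH2 libraries and at most 0.911 CPM in the other 9. Myof, a membrane repair gene, was highest among the KO-labelled libraries in TH2 replicate 2, at 16.7 CPM, the library with the highest myeloid marker sum. The interaction of Myof was -3.79 without that library (adjusted p = 0.156), and the call was lost without any 1 of 9 of the 12 libraries (adjusted p = 0.0555 to 0.156, edgeR), without the filter on low counts (0.0846) and by the test of the 2-fold change (0.180).

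On the TH1 side were P2ry1 (6.44, adjusted p = 0.0372), Nrgn (5.31, 0.0184), Muc1 (4.44, 0.00103), Adamtsl3 (4.40, 0.0474), Trpm6 (4.30, 0.00236), Mpzl2 (4.16, 4.09e-05), Gpx8 (3.71, 0.00383) and Esm1 (3.53, 0.00101). P2ry1 had 0 counts in WT TH1 libraries, and Adamtsl3 and Trpm6 had 3 each, so these fitted values depend on the prior count and are no bounds. WT TH2 libraries were at least 51.2-fold higher than WT TH1 libraries for P2ry1. Gpx8, a peroxidase of the endoplasmic reticulum, measured 15.0 to 43.7 CPM over the 6 KO-labelled libraries, whose subsets overlapped, against 0.224 to 0.414 CPM in WT TH1 and 2.80 to 3.59 CPM in WT TH2 libraries.

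With each of the 12 libraries left out in turn, 11 of these 23 genes were called every time. The others, Adamtsl3, Ccl3, Ccl5, Ccr8, Ecm1, Gm29050, Gm4070, Ly6c1, Maf, Myof, Nrgn and P2ry1, each lost the call without at least 1 library. That of Gm4070 was lost without any 1 of 11 of the 12 libraries (adjusted p = 0.0543 to 0.142, edgeR), with the replicate block (0.0637), without the filter on low counts (0.0585) and by the test of the 2-fold change (0.239), and its WT TH2 libraries held 1 count in all. Calls were lost without any 1 of 8 libraries for Ecm1 (0.0560 to 0.141), 7 for P2ry1 (0.0567 to 0.105), 6 for Ly6c1 (0.0526 to 0.0731) and 5 for Gm29050 (0.0524 to 0.0728), and by the test of the 2-fold change for each. The call of Adamtsl3 was lost without any 1 of 8 libraries (adjusted p = 0.0657 to 0.333, edgeR), its value being 2.73 without KO-labelled TH1 replicate 3, and also with the replicate block (0.0600), without the filter on low counts (0.0815) and by the test of the 2-fold change (0.256). That of Nrgn was lost without TH1 WT replicate 1 or 3, without the filter (0.0585) and by the test of the 2-fold change (0.109).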

How the results depend on the processing

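No call on a named gene reversed. Calls between KO-labelled TH1 and TH2 (959) numbered 606 with a mean count of at least 50, 308 when the 2-fold change itself was tested and 229 in the 6 KO-labelled libraries alone. WT calls (863) numbered 559 and 274 under the former pair and 1473 by the adjusted p-value alone. Interaction calls (356) numbered 587 with DESeq2 and 43 by the test of the 2-fold change. With each library left out in turn, these counts ranged from 658 to 1273, from 660 to 711 and from 191 to 1105. Medians of TH1-high genes were 0.31 to 0.63 in KO-labelled and 1.53 to 1.62 in WT cells with libraries left out, those of TH2-high genes -1.63 to -1.30 and -1.69 to -1.58, and score differences 3.11 to 3.36 and 5.00 to 5.10. Lineage genes taken by the test of the 2-fold change had medians of 2.26 for TH1-high genes in WT and of -2.33 and -2.77 for TH2-high genes in KO-labelled and WT cells. Those also called in WT here had 1.94, -1.88 and -2.40. With 50 genes per side, score differences were 3.86 and 5.60, and with a prior count of 0.5 that of WT was 5.34. The cause of these shifts was not tested, beyond fewer genes or libraries.

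With the replicate number as a block, 1054, 922 and 395 genes were called. Same-numbered KO-labelled libraries deviated with r = 0.106, 0.157 and -0.136 across genes, so that 1 pair did not deviate together, although their myeloid and basophil marker sums ranked in the same order. Whether the numbers pair these libraries is not given by the labels. The block ended the interaction calls of Ccl3 (adjusted p = 0.0584) and Ccl5 (0.0545), among 4 named genes, and added that of Il13. The share of positive among all interaction calls, 23.9%, was 37.1% to 40.7% without 1 of the KO-labelled TH1 libraries. Of 57 named genes called between KO-labelled subsets, 32 were called in every setting and 46 with every library left out. For the 24 interaction calls these were 10 and 12.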

Other observations

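For all 10 granzyme and perforin genes, every KO-labelled library lay above every WT library of the same subset. This held for 23.7% of all genes in TH1 and 31.9% in TH2 cells. Of the 10, 2 were called higher in TH1 between KO-labelled cells (1.76% of all genes), a count that was 0 without TH2 replicate 1 or 2 and 6 without TH2 replicate 3. The count was also 0 when the 2-fold change itself was tested or only the 6 KO-labelled libraries were fitted. Gzma, a granzyme that acts as a tryptase, measured 1713, 3280.4 and 3023 CPM in KO-labelled TH1 and 4899, 3008 and 5810.3 CPM in KO-labelled TH2 libraries, which overlapped. In WT it was higher in TH2, at 281, 177 and 222 CPM against 34.4, 14.7 and 26.4 CPM, and the interaction was 2.39 ± 0.49 (SE, adjusted p = 0.00909, edgeR). Prf1, which encodes perforin, had 1435, 805 and 1598 CPM in KO-labelled TH1 and 726, 370.1 and 609 CPM in KO-labelled TH2 libraries, a log2 fold change of 1.17 that was not called (adjusted p = 0.128, edgeR), beside 2.23 in WT cells.

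Cxcr4, the receptor for the chemokine CXCL12, measured 13.6, 7.73 and 35.6 CPM in KO-labelled TH1 and 106, 71.4 and 56.5 CPM in KO-labelled TH2 libraries (log2 fold change -2.02, adjusted p = 0.000972, edgeR), and the groups did not overlap. Of 18 genes of the integrated stress response, 4 were called higher in KO-labelled TH2 cells, Nupr1 (-2.23), Vldlr (-1.50), Atf3 (-1.13) and Atf5 (-1.04), and 2 without TH1 replicate 3, against 1 higher in TH2 and 1 higher in TH1 in WT cells. Over all genes, 5.14% were called higher in TH2 in KO-labelled cells, and 2.95% and 3.26% in the 2 directions in WT cells. The 4 became 6 without TH1 replicate 2, 1 when the 2-fold change itself was tested and 0 when only the 6 KO-labelled libraries were fitted.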
